A study of Mus musculus with 35 samples.

Results

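The 10 genes described here encode enzymes of mitochondrial fatty acid oxidation: Cpt1a, Cpt2, Acadvl, Acadm, Acads, Hadha, Hadhb, Hadh, Acaa2 and Decr1. They were taken as the array rows, or transcript clusters, annotated with a single one of these gene symbols, and each of the 10 had 1 such cluster among 15621 clusters with 1 symbol and 17958 clusters in all. Expression was measured in 35 cultures, each on 1 Mouse Exon 1.0 ST array, grown from white adipocyte precursors of inguinal subcutaneous fat of SV129 and C57BL/6J mice. Untreated cultures were harvested at day 3 or at day 7 (control), and treated cultures received 1 µM norepinephrine (NE) or 1 µM rosiglitazone (ROSI), an agonist of the nuclear receptor PPARγ, from the first day until day 7. Day 3 and control groups held 4 arrays in each strain and NE groups held 5, while ROSI was measured on 5 SV129 and 4 C57BL/6J arrays. In the labels the protocol note lists both drugs for all cultures, so groups were formed from the treatment entry of each culture. No label says whether the cultures of a group came from separate mice, so p-values measure the spread between cultures, which may in part be technical.

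Fatty acids enter the mitochondrion as acylcarnitines: Cpt1a, on the outer membrane, makes the acylcarnitine and is the step that malonyl-CoA inhibits, and Cpt2, on the inner membrane, returns it to acyl-CoA. The chain is then shortened in repeated cycles of dehydrogenation, hydration, a second dehydrogenation and thiolysis, with separate enzymes for long, medium and short chains. White adipocytes mainly store and release fatty acids, whereas brown and brown-like adipocytes burn them for heat, and PPARs are known to regulate many genes of the pathway.

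Promoter windows from the RefSeq table (build GRCm38.p6) were used for 8 of the 10 genes, all but Acaa2 and Decr1. Sequence matches below are counted in these 8 genes only, and Acaa2 and Decr1 were not searched. Each window ran from 250 bases before to 50 bases after a start site. For Cpt1a this window lies inside the annotated gene (chr19:3322326-3385735), and not before its first base. Hadha and Hadhb, which encode the α and β subunits of one enzyme, lie head to head on chromosome 5 with 272 bases between them, and their windows overlap. The 250 bases before Hadhb (chr5:30155003-30155252, plus strand), which lie wholly between the pair, are shown as the interval shared by both genes, with the GC box GGGCGG in capitals. The same stretches are shown for Acadvl (chr11:70015429-70015678, minus strand) and Cpt1a (chr19:3323051-3323300, plus strand), the genes with the greatest and the smallest change under ROSI among the 8 genes with a window, with the nuclear receptor hexamer AGGTCA in capitals on either strand.
Hadhb: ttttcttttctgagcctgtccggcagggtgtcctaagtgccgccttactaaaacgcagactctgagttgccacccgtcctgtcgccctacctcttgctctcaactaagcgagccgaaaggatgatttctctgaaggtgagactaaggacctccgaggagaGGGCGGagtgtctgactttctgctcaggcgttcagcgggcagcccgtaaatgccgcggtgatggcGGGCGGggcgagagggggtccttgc
Acadvl: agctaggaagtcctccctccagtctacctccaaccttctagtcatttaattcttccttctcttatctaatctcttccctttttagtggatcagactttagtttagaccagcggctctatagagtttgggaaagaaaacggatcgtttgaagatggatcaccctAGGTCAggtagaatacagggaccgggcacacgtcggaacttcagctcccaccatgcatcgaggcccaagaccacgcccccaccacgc
Cpt1a: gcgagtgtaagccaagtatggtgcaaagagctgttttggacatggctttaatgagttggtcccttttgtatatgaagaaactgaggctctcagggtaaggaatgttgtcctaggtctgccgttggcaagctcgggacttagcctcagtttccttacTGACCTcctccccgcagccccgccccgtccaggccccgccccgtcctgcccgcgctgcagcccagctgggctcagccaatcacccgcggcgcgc

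Both strands of the windows were searched. AGGTCA was found in 3 of the 8 windows (Acadm, Acadvl and Cpt1a), against 16.3% of all 32851 windows in the table. It starts 87 bases before the gene start in Acadvl and 94 bases before the start site of the Cpt1a window. It is thus present in the windows of both the gene that changed most and the gene that changed least. The full PPAR element AGGTCANAGGTCA, was in 0 of the 8 windows and in 0.0396% of all windows, and the element TCAAGGTCA, read by the estrogen-related receptors, was likewise in 0 of 8 and in 0.423% of all. Both of these longer motifs contain the hexamer. GGGCGG was in 6 of the 8 windows, against 35.7% of all. The only site of the Hadha window is also counted for Hadhb, whose window overlaps it. These matches describe letters in short windows and say nothing of binding.

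The deposited values were log2 intensities between 2.57 and 14.42, with array medians between 8.03 and 8.24. All 10 clusters were well measured: their means over the 35 arrays were higher than those of at least 74.1% of clusters (Acadvl) and of up to 98.0% (Hadh). On an array a level is read from each gene's own probes, so changes of genes, and not their levels, are compared below. In SV129, 3 treated arrays stood apart from their groups by the values of these 10 genes. None of them is among the arrays flagged below for a wide gap, and results without them are not independent tests. For ROSI replicate 1 all 10 genes lay within the range of the SV129 NE arrays, and for NE replicate 2, 6 of 10 lay within the range of the SV129 control arrays, 3 below it and 1 above it. ROSI replicate 6 lay above all SV129 NE arrays for all 10 genes, but on a scale where the SV129 control mean is 0 and the mean of ROSI replicates 2, 3 and 4 is 1, its median position was 0.72, against 0.22 for replicate 1. Most counts of genes called in comparisons that use these arrays are also given without them, and for changes within SV129 and for strain differences under treatment this was chosen after seeing the data.

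In ROSI cultures all 10 genes were expressed at a higher level than in control cultures of the same strains. Acadvl, the dehydrogenase of very long chains, rose 4.12-fold. A further 6 genes of chain shortening (Acadm, Acads, Hadha, Hadhb, Acaa2 and the auxiliary enzyme Decr1) rose between 2.44-fold and 3.20-fold. Cpt2 and Hadh rose 2.30-fold and 2.26-fold, and Cpt1a, the measured enzyme of the entry step, rose 1.24-fold. Cpt1b, another form of that enzyme, had no single-symbol cluster, so its change is not known here. With limma and strain as a covariate, 10 of 10 passed an adjusted p of 0.01, against 16.3% of all 17958 clusters that rose. The members' median change was 1.57 on the log2 scale, and that of all clusters was 0.01. Ranked by change among all clusters, 5 of the 10 were in the top 100, from rank 30 (Acadvl). The others reached down to rank 210 (Hadh), but for Cpt1a at rank 2117. For 9 of 10 genes every ROSI array lay above every control array, as held for 3.61% of all clusters, and Cpt1a was the exception. In bulk cultures a change in the number of cells of a type cannot be told apart from a change in RNA per cell, here or in any comparison below.

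**Figure D1:**
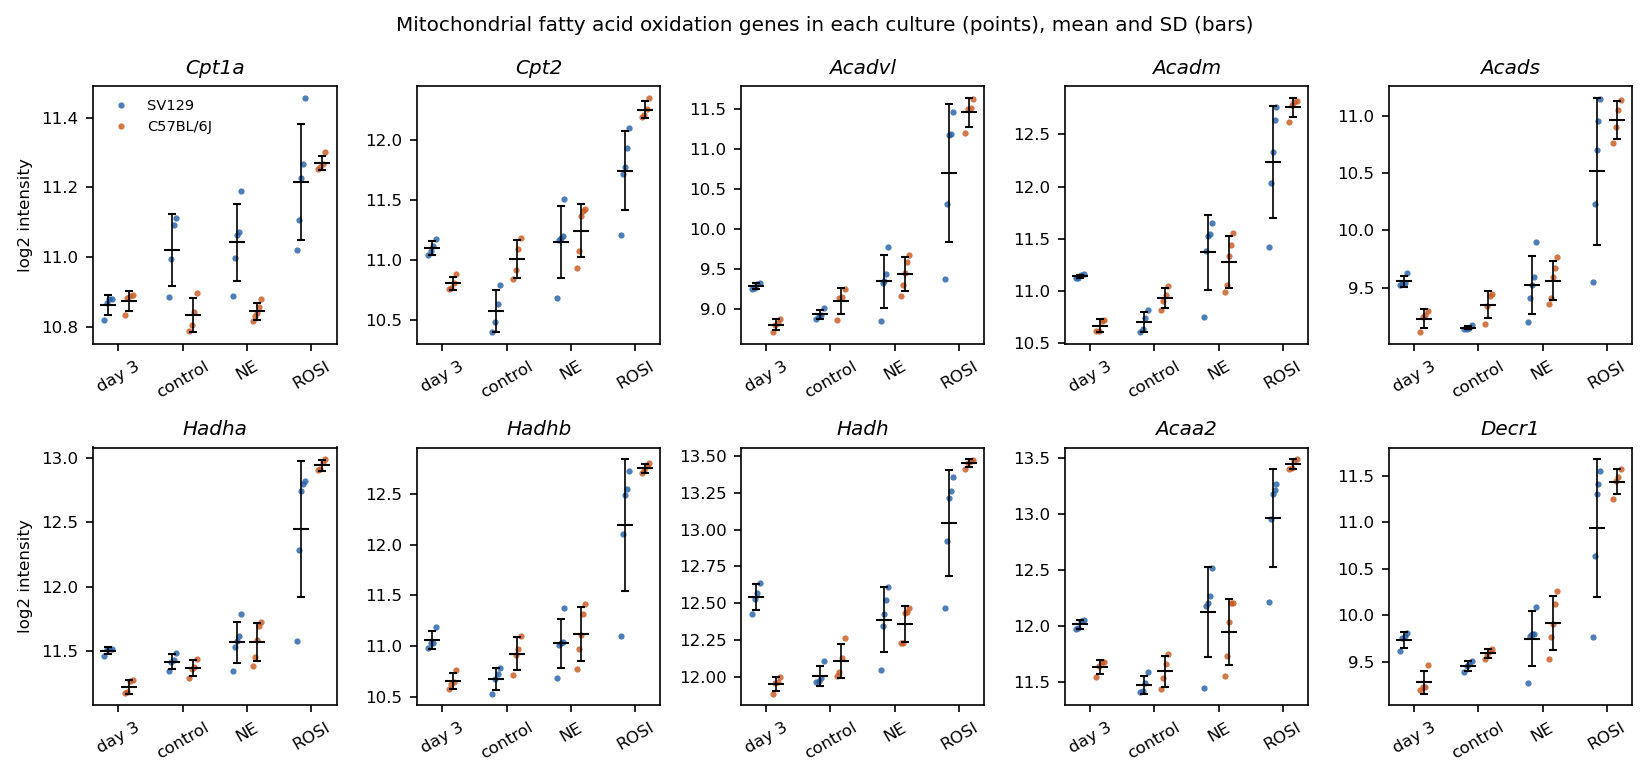
Each panel plots the log2 intensity of 1 gene (vertical axis, own scale) in the 35 cultures, grouped by condition (day 3, control, NE, ROSI) and coloured by strain, with the group mean and SD. The ROSI means lie highest in all 10 panels, the lowest SV129 ROSI point is replicate 1 throughout, and Cpt1a spans a narrow range, from 10.79 to 11.46.

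The measured genes of the carnitine step changed unevenly. Values are given here in the order of the replicate numbers. Cpt1a in SV129 was 10.89, 11.00, 11.11 and 11.09 in control arrays and 11.02, 11.46, 11.11, 11.23 and 11.27 in ROSI arrays, and in C57BL/6J it was 10.84, 10.79, 10.81 and 10.90 in control and 11.30, 11.26, 11.25 and 11.27 in ROSI. The SV129 groups overlapped, with ROSI replicates 1 and 3 inside the control range, and the C57BL/6J groups did not. The change of Cpt1a was 0.31 on the log2 scale (SE 0.06, adjusted p = 4.7e-04). Cpt2 ranged from 10.40 to 11.19 in control and from 11.21 to 12.35 in ROSI, with a change of 1.20 (SE 0.10, adjusted p = 4.4e-07).

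The acyl-CoA dehydrogenases open each cycle, and all 3 among the 10 genes rose, while Acadl, for long chains, had no single-symbol cluster. For Acadvl, SV129 control arrays gave 8.88, 9.01, 8.93 and 8.92 and SV129 ROSI arrays 9.37, 11.17, 11.19, 11.46 and 10.31. C57BL/6J arrays gave 8.87, 9.25, 9.15 and 9.14 in control and 11.62, 11.50, 11.49 and 11.19 in ROSI. The groups did not overlap in either strain, with SV129 ROSI replicate 1 nearest to the controls, and the change was 2.04 (SE 0.22, adjusted p = 2.8e-06). Acadm, for medium chains, gave 10.74, 10.82, 10.61 and 10.64 in SV129 control arrays and 11.42, 12.33, 12.64, 12.76 and 12.04 in SV129 ROSI arrays. In C57BL/6J it gave 10.82, 11.05, 10.96 and 10.90 in control and 12.81, 12.79, 12.82 and 12.62 in ROSI. Again no ROSI array reached down to a control array, and the change was 1.68 (SE 0.14, adjusted p = 5e-07). Acads, for short chains, read 9.17, 9.14, 9.15 and 9.14 in SV129 control and 9.55, 10.71, 10.96, 11.15 and 10.23 in SV129 ROSI cultures. The C57BL/6J cultures read 9.18, 9.44, 9.43 and 9.34 in control and 11.14, 11.05, 10.90 and 10.77 in ROSI. SV129 controls of this gene were the tightest group of all (SD 0.01, n = 4), the groups were apart in both strains, and the change was 1.49 (SE 0.16, adjusted p = 2.8e-06).

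The later steps of the cycle rose by 1.18 to 1.66. Hadha and Hadhb, the subunits of the trifunctional protein that carries long chains through hydration, dehydrogenation and thiolysis, rose by 1.29 (SE 0.14) and 1.66 (SE 0.16). Hadha ranged from 11.29 to 11.48 in control and from 11.58 to 12.99 in ROSI, and Hadhb from 10.54 to 11.10 and from 11.11 to 12.80, so that the lowest ROSI array of Hadhb all but touched the highest control. Hadh, which dehydrogenates shorter hydroxyacyl-CoAs, had 12.11, 11.97, 11.97 and 11.99 in SV129 control and 12.47, 13.21, 13.26, 13.36 and 12.92 in SV129 ROSI. In C57BL/6J its values were 12.01, 12.26, 12.13 and 12.04 in control and 13.46, 13.47, 13.45 and 13.41 in ROSI. The groups did not overlap and the change was 1.18 (SE 0.10), the second smallest of the 10. Acaa2, the thiolase of medium chains, read 11.49, 11.59, 11.42 and 11.41 in SV129 control arrays and 12.21, 13.21, 13.17, 13.26 and 12.95 in SV129 ROSI arrays. Its C57BL/6J arrays read 11.44, 11.75, 11.66 and 11.54 in control and 13.47, 13.41, 13.49 and 13.40 in ROSI, with no overlap and a change of 1.66 (SE 0.12). Decr1, which prepares polyunsaturated chains for the cycle, ranged from 9.39 to 9.64 in control and from 9.76 to 11.57 in ROSI and changed by 1.65 (SE 0.18). Adjusted p-values of these 5 genes lay between 1.9e-07 (Acaa2) and 3.6e-06 (Hadha).

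**Figure D2:**
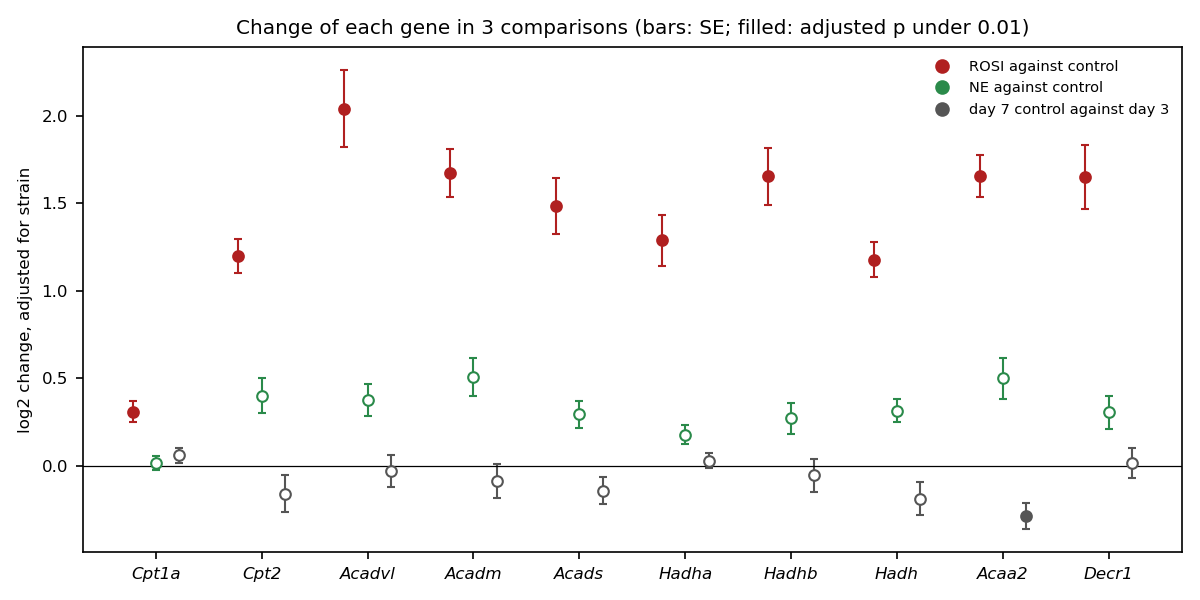
The log2 change of each gene, adjusted for strain (vertical axis, bars give the SE), is plotted for ROSI against control, NE against control and day 7 control against day 3, with filled points for an adjusted p under 0.01. All 10 ROSI points are filled, from 0.31 (Cpt1a) to 2.04 (Acadvl), no NE point is, and of the day points only Acaa2 (-0.29) is.

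The rise held within each strain for every gene but Cpt1a, which passed in C57BL/6J only (the strains' difference in its change was not past the threshold). Within C57BL/6J 10 of 10 genes passed (12% of all clusters rose), with changes from 0.44 (Cpt1a) to 2.35 (Acadvl). Within SV129 9 of 10 passed (7.14% of all clusters), with changes from 0.19 (Cpt1a, SE 0.07, adjusted p = 0.069) to 1.76 (Acadvl). The calls of both strains use 1 spread pooled over the groups compared. The median SD over the 10 genes was 0.53 in SV129 ROSI and 0.06 in C57BL/6J ROSI, so the pooled SE understates the spread of the former. Without SV129 ROSI replicates 1 and 6 the count in SV129 was again 9 of 10 (14.8% of all clusters), with changes from 0.24 (Cpt1a, adjusted p = 0.0222) to 2.34 (Acadvl). All 10 differences between the strains' changes were positive, that is larger in C57BL/6J, from 0.08 (Cpt2) to 0.59 (Acadvl), but 0 of 10 passed (0.00557% of clusters did), and without SV129 ROSI replicates 1 and 6 those of Acads, Decr1, Cpt2, Hadhb and Acadm lay below 0 (-0.17, -0.12, -0.11, -0.08 and -0.05). Leaving out those replicates, the changes adjusted for strain ran from 0.35 (Cpt1a) to 2.34 (Acadvl), and that of Decr1 moved from 1.65 to 1.90.

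**Figure D3:**
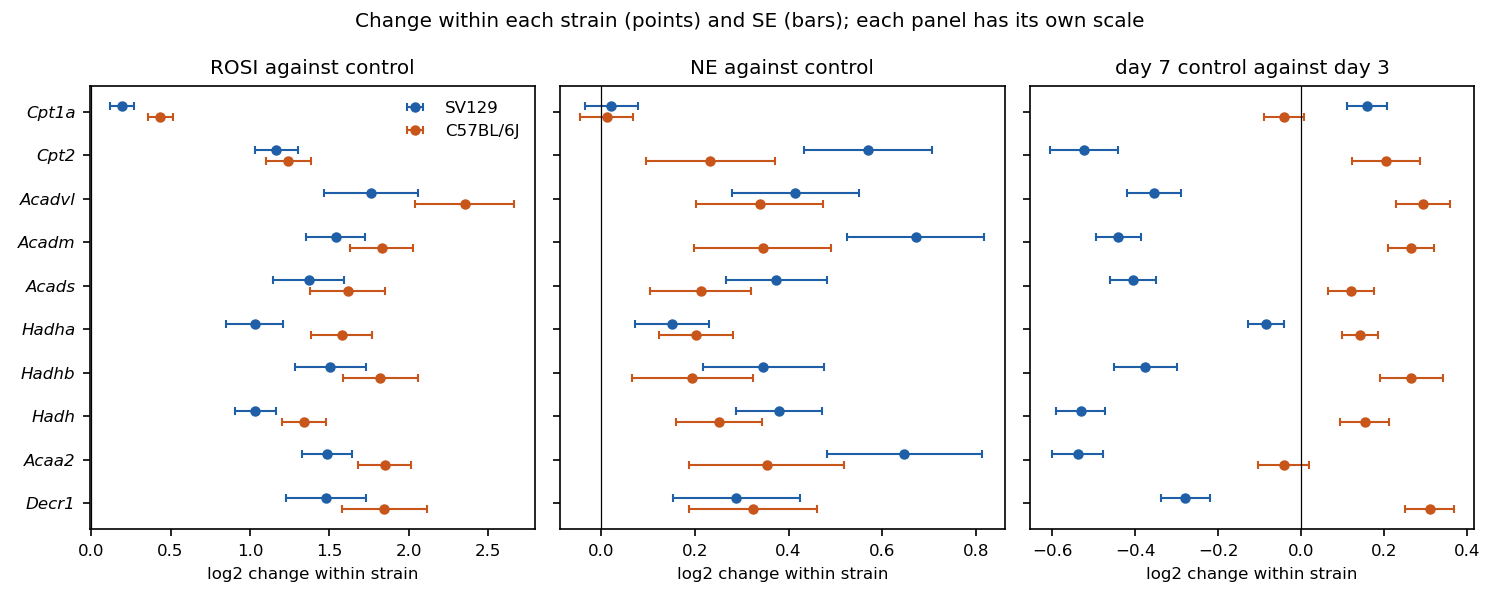
Changes within SV129 and within C57BL/6J (horizontal axis, log2, bars give the SE from a spread pooled over both strains) are plotted for the 10 genes in 3 comparisons, each panel on its own scale. For ROSI both strains lie above 0 for every gene, and for day 7 control against day 3 they lie on opposite sides of 0 for 9 of 10 genes, with Acaa2 below 0 in both (-0.54 in SV129 and -0.04 in C57BL/6J) and Cpt1a the only gene above 0 in SV129 (0.16).

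Steps of the pathway were compared with each other within arrays, as the change in the difference of 2 genes' log2 values, by an exact permutation test with labels permuted within strain (two-sided). The 6 pairs in 3 comparisons gave 18 tests, adjusted together. Under ROSI, Acadvl rose more than Acads by 0.56 (95% interval 0.38 to 0.73, adjusted p = 0.00306) and Acadm more than Acads by 0.19 (0.09 to 0.29, adjusted p = 0.00714). The excess of Acadvl over Acadm was 0.37 (0.14 to 0.59, adjusted p = 0.0122) and did not pass. It passed without SV129 ROSI replicate 1 (0.44, adjusted p = 0.00551), without replicate 6 (0.40, adjusted p = 0.00945) and without both (0.49, adjusted p = 0.00245). These replicates were picked by the values of the same genes, so the passes without them are not independent tests. The call for Acadm over Acads was lost without both of these arrays (0.16, adjusted p = 0.0106), and also without SV129 control replicate 5 or 6 (adjusted p = 0.0135 for each) or C57BL/6J control replicate 3, 4 or 6 (adjusted p = 0.011, 0.0115 and 0.0147), with differences between 0.18 and 0.19. Within strains the changes of Acadvl, Acadm and Acads stood in this order too, and Acadvl exceeded Acads by 0.39 in SV129 and 0.74 in C57BL/6J.

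Cpt1a rose less than Cpt2 by 0.89 (difference -0.89, 95% interval -1.13 to -0.65, adjusted p = 0.00204), and its unadjusted p of 0.000113 is the smallest that the permutations can give. For the dehydrogenase step after hydration, Hadha and Hadh differed by 0.11 (-0.03 to 0.25, adjusted p = 0.142). Without SV129 ROSI replicates 1 and 6, picked by these genes' own values, the difference was 0.18 (adjusted p = 0.00945). The thiolase step showed no detectable difference: Hadhb minus Acaa2 was -0.00 (-0.13 to 0.13, adjusted p = 0.982), an interval that leaves room for a difference of 0.13 either way.

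**Figure D4:**
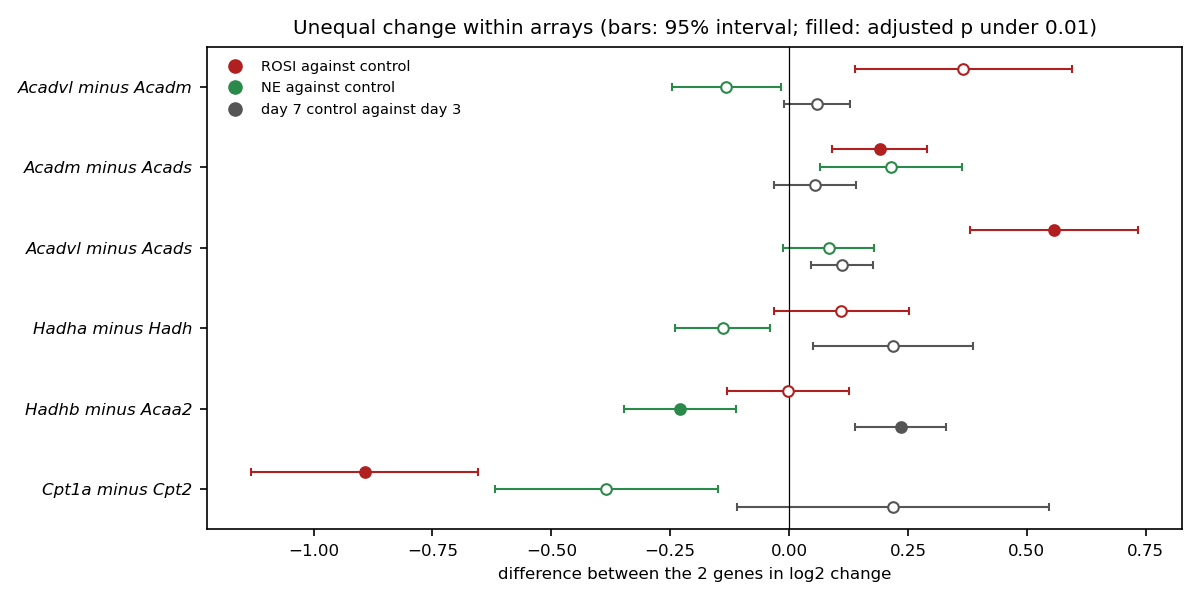
For 6 pairs of genes the difference between their log2 changes (horizontal axis, bars give the 95% interval) is plotted in 3 comparisons, with filled points for an adjusted p under 0.01 over the 18 tests. Under ROSI, Acadvl minus Acads (0.56) and Cpt1a minus Cpt2 (-0.89) lie farthest from 0. Hadhb minus Acaa2 is at -0.23 under NE and 0.24 in the day comparison, which use the same control arrays with opposite sign.

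In NE cultures the 10 genes read higher on average than in control cultures, by 0.02 (Cpt1a) to 0.51 (Acadm), but 0 of 10 passed, as did 0% of all clusters in either direction with limma. At an unadjusted p under 0.05 there were 9 of 10 genes, all but Cpt1a, and 11.4% of all clusters. In the SV129 NE arrays Acadm gave 11.54, 10.75, 11.53, 11.38 and 11.65 and Acaa2 12.18, 11.45, 12.27, 12.21 and 12.52. In the C57BL/6J NE arrays Acadm gave 10.99, 11.56, 11.06, 11.34 and 11.44 and Acaa2 11.55, 12.21, 11.73, 12.04 and 12.20. SV129 NE replicate 2 was the lowest of its group for both, inside the control range, and both genes overlapped with control in each strain.

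Acadvl in NE arrays was 9.35, 8.85, 9.44, 9.33 and 9.78 in SV129 and 9.17, 9.68, 9.30, 9.45 and 9.59 in C57BL/6J. Acads was 9.41, 9.20, 9.52, 9.59 and 9.90 in SV129, where the lowest value lay just above the highest control value of 9.17. In C57BL/6J it was 9.41, 9.67, 9.36, 9.60 and 9.77. SV129 replicate 6 was the highest NE array for each of these genes. Hadh was 12.35, 12.05, 12.53, 12.43 and 12.61 in SV129 and 12.23, 12.47, 12.23, 12.44 and 12.43 in C57BL/6J. Cpt1a was 11.00, 10.89, 11.07, 11.06 and 11.19 in SV129 and 10.84, 10.86, 10.88, 10.82 and 10.83 in C57BL/6J, so 9 of its 10 NE values lay inside the control range of 10.79 to 11.11.

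The remaining changes under NE were 0.40 for Cpt2 (SE 0.10), 0.38 for Acadvl (SE 0.09), 0.29 for Acads (SE 0.08), 0.18 for Hadha (SE 0.05), 0.27 for Hadhb (SE 0.09), 0.32 for Hadh (SE 0.07), 0.50 for Acaa2 (SE 0.12) and 0.31 for Decr1 (SE 0.09), with adjusted p between 0.0603 (Hadh) and 0.21 (Hadhb). Without SV129 NE replicate 2, which was singled out by these genes' own values, 4 genes passed. They were Acadm (0.57, adjusted p = 0.00588), Hadh (0.35, adjusted p = 0.00588), Acaa2 (0.57, adjusted p = 0.00847) and Acadvl (0.43, adjusted p = 0.00957), among 50 clusters that rose, while 13 fell. SV129 gave NE changes of 0.02 (Cpt1a) to 0.67 (Acadm) and C57BL/6J of 0.01 (Cpt1a) to 0.35 (Acaa2), and 0 of 10 differed between strains (0% of clusters). Within SV129 0 of 10 passed, and without its replicate 2, 5 of 10 did (1.36% of all clusters rose): Acadm (0.83), Acaa2 (0.82), Cpt2 (0.69), Acadvl (0.54) and Hadh (0.47), with adjusted p between 0.000223 and 0.0091. Of the gene pairs under NE, Hadhb changed less than Acaa2 (difference -0.23, 95% interval -0.35 to -0.11, exact permutation test, adjusted p = 0.00748). That call was lost without SV129 control replicate 5, C57BL/6J control replicate 3, 4 or 6, or C57BL/6J NE replicate 5 or 6, with adjusted p between 0.011 and 0.0147 and differences between -0.24 and -0.22. The other 5 pairs did not pass, with Cpt1a minus Cpt2 at -0.38 (adjusted p = 0.0113), which passed without SV129 NE replicate 2 (-0.41, adjusted p = 0.00827) or without C57BL/6J NE replicate 1 (-0.43) or 4 (-0.42). Acadm minus Acads, at 0.22 (adjusted p = 0.0127), likewise passed without SV129 NE replicate 2 (adjusted p = 0.00408) or C57BL/6J NE replicate 1 (adjusted p = 0.00758), and Hadha minus Hadh, at -0.14 (adjusted p = 0.0177), without SV129 control replicate 1 (adjusted p = 0.00984).

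Set directly against NE, ROSI cultures had a higher level of 10 of 10 genes (15.8% of all clusters rose), by 0.29 (Cpt1a) to 1.66 (Acadvl). Hadhb was at 1.38, Decr1 at 1.35, Acads at 1.19, Acadm at 1.16, Acaa2 at 1.15, Hadha at 1.11, Hadh at 0.86 and Cpt2 at 0.79. With the replicate number as a block, 0 of 10 genes and 0 clusters in either direction passed in limma. The adjusted p of the 10 genes then lay between 0.0123 and 0.013, but for Cpt1a at 0.0249. That fit rests on the 7 pairs of arrays that share strain and number. In every alternative fit the changes stayed above 0, the lowest being 0.22 (Cpt1a). Both comparisons with control use the same control arrays, so their values stand side by side only: Acadm changed by 1.68 under ROSI and 0.51 under NE, and Acadvl by 2.04 and 0.38. Within C57BL/6J 10 of 10 genes were higher in ROSI than in NE (12% of clusters) and within SV129 6 of 10 (2.82% of clusters), with Acaa2, Acadm, Cpt2 and Cpt1a short of the threshold at adjusted p of 0.0103, 0.0109, 0.0136 and 0.0832. The count in SV129 was 9 of 10 without ROSI replicates 1 and 6 (15.2% of clusters), all but Cpt1a, and 0 of 10 without NE replicate 2, where 0 clusters passed and the lowest adjusted p of the 10 genes was 0.0245. For 0 of 10 genes did every ROSI array exceed every NE array (0.267% of all clusters), since SV129 ROSI replicate 1 lay in the NE range, and 0 of 10 differed between strains (0.139% of clusters). Cell type markers moved in this comparison too (12% of all clusters were lower in ROSI): 5 of 5 progenitor markers were lower, 6 of 8 adipocyte, 2 of 7 macrophage and 3 of 5 endothelial markers were higher, with the endothelial Tek lower (-0.74), and of 4 skeletal muscle markers 1 was higher and 1 lower. Their part in the difference was not tested.

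Between day 3 and day 7 without treatment, 8 of the 10 genes fell in SV129 and 3 rose in C57BL/6J. At day 3 Acadvl was 9.32, 9.26, 9.25 and 9.33 in SV129 and 8.80, 8.71, 8.88 and 8.83 in C57BL/6J. Acadm was 11.13, 11.15, 11.12 and 11.16 in SV129 and 10.61, 10.62, 10.72 and 10.71 in C57BL/6J. For both genes the strains were fully apart at day 3, with SV129 higher, whereas the control means read higher in C57BL/6J, by 0.16 and 0.23 with neither past the threshold. Acads was 9.54, 9.52, 9.53 and 9.62 in SV129 and 9.25, 9.11, 9.26 and 9.30 in C57BL/6J. Hadh was 12.53, 12.57, 12.43 and 12.64 in SV129 and 12.00, 11.89, 11.97 and 11.96 in C57BL/6J. Acaa2, the thiolase, was 11.98, 12.04, 11.97 and 12.06 in SV129 and 11.68, 11.54, 11.68 and 11.64 in C57BL/6J. Cpt1a did not follow them, at 10.88, 10.82, 10.88 and 10.87 in SV129 and 10.83, 10.88, 10.89 and 10.89 in C57BL/6J.

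Within SV129, 8 of 10 genes fell from day 3 to day 7 (7.65% of all clusters fell), by amounts from -0.28 (Decr1) to -0.54 (Acaa2), and for the same 8 genes every day 3 array lay above every control array, as in 11.5% of clusters. These calls rest on the spread of the day 3 and control groups: with 1 spread estimated over all 35 arrays, 2 of the 8 passed, Hadh (-0.53, adjusted p = 0.00152) and Cpt2 (-0.52, adjusted p = 0.0072), against 4.77% of all clusters that fell, and Acaa2 was at an adjusted p of 0.025. Hadha changed by -0.08 (SE 0.04, adjusted p = 0.177) and Cpt1a by 0.16 (SE 0.05, adjusted p = 0.0195). Within C57BL/6J, 3 of 10 rose (4.37% of all clusters rose): Decr1 by 0.31, Acadvl by 0.29 and Acadm by 0.26 (SE 0.06, 0.07 and 0.05), and with the spread over all 35 arrays 0 of 10 passed in this strain. The remaining changes in C57BL/6J ran from -0.04 (Acaa2 and Cpt1a) to 0.27 (Hadhb, adjusted p = 0.0286). The change differed between strains for 8 of 10 genes, all but Hadha and Cpt1a, and was more positive in C57BL/6J, against 2.78% of all clusters in that direction. These differences ran from 0.50 (Acaa2, SE 0.09, adjusted p = 0.00186) to 0.73 (Cpt2, SE 0.12, adjusted p = 9.7e-04), with Acadm at 0.71 (SE 0.08, adjusted p = 5.5e-05). They rest on the spread of the 4 groups compared: with 1 spread estimated over all 35 arrays 0 of 10 passed, the lowest adjusted p being 0.0248 (Hadh). Without SV129 control replicates 5 and 6, Hadhb (0.56, adjusted p = 0.0101) and Acaa2 (0.44, adjusted p = 0.0159) did not pass. The difference for Cpt1a passed in the opposite direction with array weights (-0.26, adjusted p = 0.00294) and without SV129 control replicate 1 (-0.24, adjusted p = 0.00953).

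Averaged over strains, only Acaa2 passed, with a fall (5.6% of all clusters fell), of -0.29 (SE 0.07, adjusted p = 0.00869). It did not pass in 17 of 23 alternative fits, among them those without SV129 day 3 replicate 1, 3, 5 or 6, SV129 control replicate 1, 4, 5 or 6, C57BL/6J day 3 replicate 2 or 4, or C57BL/6J control replicate 2 or 6, with adjusted p between 0.011 and 0.0207 in these. The other 9 genes did not pass, at -0.19 for Hadh, -0.16 for Cpt2, -0.14 for Acads, -0.09 for Acadm, -0.05 for Hadhb, -0.03 for Acadvl, 0.02 for Decr1, 0.03 for Hadha and 0.06 for Cpt1a. Among the gene pairs, Hadhb and Acaa2 differed by 0.24 (95% interval 0.14 to 0.33, exact permutation test, adjusted p = 0.00714). This call was lost without SV129 control replicate 5 or C57BL/6J control replicate 3, 4 or 6 (adjusted p between 0.011 and 0.0122, differences between 0.22 and 0.23). The NE comparison uses the same control arrays with opposite sign, so the NE and day differences of this pair are not independent. Acadvl minus Acads was 0.11 (0.05 to 0.18, adjusted p = 0.011) and passed without SV129 day 3 replicate 1 (0.12, adjusted p = 0.00735) or without SV129 control replicate 1 (0.13, adjusted p = 0.00612).

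Strains were also set against each other in each condition. At day 3, 9 of 10 genes were lower in C57BL/6J than in SV129 (4.51% of all clusters were lower), from -0.28 (Hadha) to -0.59 (Hadh), and Cpt1a did not pass (0.01, SE 0.04, adjusted p = 0.892). For these 9 genes every SV129 array lay above every C57BL/6J array, as in 10.5% of clusters. Adipocyte markers were lower in C57BL/6J with them (7 of 8, median difference -0.67), while 4 of 7 macrophage markers were higher (median 0.32, with 3.75% of all clusters higher), 2 of 5 progenitor markers were higher and 1 lower, and 0 endothelial or skeletal muscle markers passed. The part of these markers in the strain difference was not tested. In control cultures 0 of 10 differed (0% of clusters), with values from -0.19 (Cpt1a) to 0.43 (Cpt2), and at an unadjusted p under 0.05 there were 6 of 10 and 17.1% of clusters. In NE cultures 0 of 10 differed (2.5% of clusters), with values from -0.20 (Cpt1a) to 0.17 (Decr1), and without SV129 NE replicate 2 Cpt1a passed as lower in C57BL/6J (-0.24, adjusted p = 0.0086). In ROSI cultures 0 of 10 differed (0.0445% of clusters), although all 10 read higher in C57BL/6J, by 0.05 (Cpt1a) to 0.75 (Acadvl). Without SV129 ROSI replicates 1 and 6 these ran from 0.01 to 0.32, and again 0 of 10 passed.

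Over the 8 groups, C57BL/6J ROSI had the highest mean and SV129 ROSI the second highest for 10 of 10 genes. These neighbours differed by less than the larger of their SDs for 7 of 10, while SV129 ROSI exceeded the third group by more than that SD for 10 of 10. The third place was held by a NE group for 9 of 10 genes and the last by C57BL/6J day 3 for 6, SV129 control for 3 and C57BL/6J control for 1, which was Cpt1a. Of 50 steps between neighbours below the second place, 33 were smaller than the larger SD. The spread itself differed between groups: the median SD over the 10 genes was 0.53 in SV129 ROSI and 0.28 in SV129 NE, against 0.21 in C57BL/6J NE, 0.04 to 0.12 in the 4 untreated groups and 0.06 in C57BL/6J ROSI.

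The 10 genes varied together, Cpt1a the least closely. Across the 35 arrays, which share the treatment differences, the 45 pairwise Pearson correlations had a median of 0.97 (0.67 to 0.99). With group means removed the median was 0.89 (0.31 to 0.97), and without SV129 ROSI, whose replicate 1 is its lowest array for all 10 genes, it was 0.81 (0.22 to 0.96) over 30 arrays. In these 30 arrays the pairs with Cpt1a ran from 0.22 (Cpt2) to 0.52 (Decr1), and the lowest pair without Cpt1a was at 0.67 (Acads and Hadha). No pairwise correlations of other clusters are given beside these. The 5 single-symbol clusters whose values followed the mean of the standardised members most closely over the 35 arrays were Tmem120a (r = 0.993), Dnajc15 (0.992), Pdhx (0.991), Etfdh (0.990) and Pex13 (0.990). Of these Etfdh passes electrons from acyl-CoA dehydrogenases to the respiratory chain, and Pdhx is a subunit of the pyruvate dehydrogenase complex.

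Neighbouring pathways rose with the 10 genes under ROSI. Of 11 other measured genes of mitochondrial beta-oxidation 11 rose (median change 1.05), of 14 genes of the citrate cycle and respiratory chain 14 rose (median 0.90), and of 4 peroxisomal oxidation genes 4 rose (median 0.94), beside 16.3% of all clusters. Both measured genes of malonyl-CoA synthesis, Acaca and Acacb, the carboxylases that make the inhibitor of Cpt1a, rose (0.89 and 1.76). Of 9 regulators 7 rose, with Ppara, the nuclear receptor of fatty acid oxidation, at 2.46 and its coactivator Ppargc1a at 1.85 among the greatest changes, beside Idh3a of the citrate cycle at 1.85. Under NE 0 of these genes passed, and from day 3 to day 7, averaged over strains, Ppara (0.53), Acot2 (0.52) and Acacb (0.38) rose (9.69% of all clusters) while Hsd17b10, Etfb and Cs fell (-0.25, -0.38 and -0.26, with 5.6% of all clusters). Within SV129 alone, 11 of 14 citrate cycle and respiratory chain genes fell from day 3 to day 7 (median -0.30), as did 7 of 11 other beta-oxidation genes (1 rose), 7 of 9 regulators (1 rose) and 2 of 4 peroxisomal genes, beside 7.65% of all clusters. Within C57BL/6J 0 of the 14, 0 of the 11 and 0 of the 4 passed, and 2 of 9 regulators rose. The change was more positive in C57BL/6J for 9 of the 14, 5 of the 11 and 4 of the 9, beside 2.78% of all clusters. Against NE, all of these genes but the regulators Ppard and Rxra were higher in ROSI (15.8% of all clusters), led by Ppara (2.20), Ppargc1a (1.77) and Idh3a (1.49).

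Markers of fat cells moved with the 10 genes. Of 8 adipocyte markers 7 rose under ROSI (16.3% of all clusters), the exception being Lep (-0.06). In every array 1 of the 8 lay in the dimmest 25% of clusters, and their mean log2 level per array ranged from 9.69 to 10.33 in SV129 control and 10.73 to 11.58 in SV129 ROSI, and from 10.28 to 10.75 and 11.54 to 11.61 in C57BL/6J. Of 5 progenitor markers 4 fell under ROSI (11.6% of all clusters fell) and 0 rose, with mean levels of 10.12 to 10.48 in SV129 control, 9.14 to 10.23 in SV129 ROSI, 10.29 to 10.33 in C57BL/6J control and 9.24 to 9.32 in C57BL/6J ROSI. From day 3 to day 7, 7 of 8 adipocyte markers fell in SV129 (beside 7.65% of all clusters, with a median level of 10.69 at day 3 and 9.95 in control) and 3 of 8 rose in C57BL/6J (beside 4.37%, with 10.11 and 10.47), and 6 of 8 differed between strains in that change (beside 2.78%). The macrophage markers rose with time in both strains (7 of 7 in SV129, where 10.6% of all clusters rose, and 5 of 7 in C57BL/6J), to levels of 8.45 to 8.55 and 8.61 to 8.90 in control, and under ROSI 1 of 7 fell (Itgam, -0.44). Under ROSI 1 of 5 endothelial markers fell (Tek, -0.93) and 0 of 4 skeletal muscle markers passed. The part of these markers in the changes of the 10 genes was not tested.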

How the data were processed

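Mouse Exon 1.0 ST arrays of 35 cultures were analysed. The authors ran RMA in Affymetrix Power Tools (it corrects background, quantile-normalises and summarises probes) and deposited 1 log2 value per transcript cluster and array, after removing some RNA samples as outliers. The sources used here give neither versions nor a genome build. Of 17958 clusters, 15621 carried 1 gene symbol, 1370 several and 967 none in the platform annotation. Arrays give no read depth, and their number limits the precision. No arrays were identical (highest correlation 0.998).

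The lmFit and eBayes functions of limma 3.58.1 (R 4.3.3) estimated changes from the deposited values of every cluster, with strain as a covariate or with 4 group means for changes within strains and their difference, two-sided, calling an adjusted p (Benjamini-Hochberg, 17958 clusters) under 0.01. Fits used only the arrays compared. Pairs of genes were compared by exact permutation tests within strain, adjusted over 18 tests. The fits were tested on simulated data. Alternatives were a threshold of 0.05, no strain term, 1 model over all arrays, array weights, quantile normalisation, median centring, a filter on the dimmest 25% of clusters, arrays left out and a block for the replicate number, with some fits within and between strains added after seeing the data. All 10 genes are named in each comparison. Every array is given for Cpt1a, Acadvl, Acadm and Acads and for the remaining genes with the largest and smallest ROSI change, and of other lists up to 3 passing genes and those against their list's direction. The genes and lists were chosen with earlier results of these data known. Of 95 list entries 79 had a single-symbol cluster. Promoter windows are from RefSeq.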

Additional observations from a re-analysis of the deposited data

Results flagged for a closer look

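Of 80 groups of 4 or 5 arrays, 1 for each gene and group, 4 (5%) held an array whose gap to its nearest neighbour took up most of the group's range, and chance alone gives about 1 in 20. These were Acadm in C57BL/6J ROSI replicate 6 (12.62, lowest), Cpt1a in C57BL/6J day 3 replicate 2 (10.83, lowest), Decr1 in C57BL/6J day 3 replicate 4 (9.47, highest) and Hadha in SV129 day 3 replicate 3 (11.46, lowest).

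The change from day 3 to day 7 control differed between strains by an interaction test in limma for 8 genes. Each was more positive in C57BL/6J, against 2.78% of all clusters in that direction. The C57BL/6J change minus the SV129 change was 0.73 for Cpt2, 0.65 for Acadvl, 0.71 for Acadm, 0.53 for Acads, 0.64 for Hadhb, 0.69 for Hadh, 0.50 for Acaa2 and 0.59 for Decr1. With the spread taken over all 35 arrays 0 of these 8 passed, with adjusted p from 0.0248 (Hadh) to 0.364 (Acadvl). The adipocyte marker list moved with them, 6 of 8 differing between strains in the same direction (beside 2.78% of all clusters), and its part was not tested.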

How the results depend on the processing

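The ROSI count of 10 of 10 genes held under every alternative run. Replicate numbers were shared between groups, and no label says what they mean. Same-numbered arrays deviated together (correlation over 0.1) in 1, 2, 0 and 1 of 7 pairs in the ROSI, NE, day and ROSI against NE comparisons. These correlations cannot decide whether same-numbered cultures shared a preparation. With the replicate block, ROSI against NE gave 0 members higher (main 10), at adjusted p from 0.0123 to 0.0249 in limma, and 0 clusters higher or lower (main 2845 and 2152). ROSI against control gave 885 clusters lower (main 2081), and the day comparison 0 members lower, 766 clusters higher, 649 lower and Acadvl at 0.00082. The cause was not tested here or below.

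For NE (main 0 clusters), a threshold of 0.05 gave 3 clusters higher and 9 lower, all 35 arrays in 1 model gave 1 higher and quantile normalisation 1 lower. Cpt1a was -0.0011 under quantile normalisation and -0.00048 under median centring. For the day comparison (main 1 member and 1005 clusters lower, 1740 higher), the 0.05 threshold gave 2860 clusters higher and 1694 lower. No member was lower (0) with no strain term, 1 model, array weights or SV129 control replicates 5 and 6 left out. Decr1 was -0.0163 under quantile normalisation and -0.0161 under median centring, Hadha -0.0022 under centring, and Acadvl 0.039, Acadm 0.014 and Hadhb 0.0399 without SV129 control replicates 5 and 6.

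Clusters whose ROSI change differed between strains (main 1) numbered 3 at 0.05, 37 in 1 model, 14 with array weights, 2 with quantile normalisation, the dim filter or SV129 ROSI replicates 1 and 6 left out, and 0 without SV129 control replicates 5 and 6. For NE (main 0) array weights gave 23. For the day (main 8 members, 774 clusters) the numbers of clusters were 1779 at 0.05, 95 in 1 model with 0 members, 2004 with array weights and 441 without SV129 control replicates 5 and 6. Strain differences in the ROSI change reversed for Cpt2 with array weights (-0.094) and, without SV129 ROSI replicates 1 and 6, for Cpt2 (-0.11), Acadm (-0.049), Acads (-0.17), Hadhb (-0.077) and Decr1 (-0.12). In the NE change they reversed for Cpt1a with array weights (0.038) and Decr1 with quantile normalisation (-0.0197). In comparisons added after seeing the data, leaving out SV129 ROSI replicates 1 and 6 gave, within SV129, 2651 clusters higher and 1593 lower for ROSI against control (main 1283 and 679), 2724 and 1631 with 9 members higher for ROSI against NE (main 507, 170 and 6), and 16 higher and 1 lower for the strains under ROSI (main 8 and 0). Without SV129 NE replicate 2, NE within SV129 gave 244 clusters higher, 99 lower and 5 members higher (main 6, 7 and 0), ROSI against NE within SV129 0 of each, and the strains under NE 549 higher and 363 lower with 1 member lower (main 348, 101 and 0). With 1 model over all arrays the day comparison gave 856 clusters lower and 2 members lower within SV129 (main 1374 and 8), and 394 higher, 332 lower and 0 members higher within C57BL/6J (main 784, 540 and 3).

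Of the gene pairs, Hadhb minus Acaa2 under NE lost its call with no strain term (-0.23). With quantile normalisation Cpt1a minus Cpt2 under NE (-0.40) and Acadvl minus Acads by day (0.11) passed. Without SV129 ROSI replicates 1 and 6 the ROSI differences were 0.49 for Acadvl minus Acadm, 0.16 for Acadm minus Acads, 0.18 for Hadha minus Hadh and 0.059 for Hadhb minus Acaa2.

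With 1 array left out at a time, NE gave 0 to 4 members higher, 0 to 50 clusters higher and 0 to 13 lower, and the day comparison 0 to 1 members lower. Clusters differing between strains ranged from 1 to 27 for ROSI, 0 to 10 for NE and 503 to 1308 for day. Changes ranged from -0.0044 to 0.035 for Cpt1a under NE, and by day from -0.078 to 0.0034 for Acadvl and -0.0193 to 0.049 for Decr1. Strain differences ranged from -0.057 to 0.16 for Cpt2 under ROSI and, under NE, from -0.0486 to 0.0352 for Cpt1a, -0.0058 to 0.10 for Hadha, -0.084 to 0.13 for Decr1 and -0.20 to 0.031 for Acadvl. Under ROSI the pair differences ranged from 0.33 to 0.44 (Acadvl minus Acadm), 0.17 to 0.21 (Acadm minus Acads) and -0.031 to 0.0391 (Hadhb minus Acaa2). Under NE they ranged from 0.18 to 0.25 (Acadm minus Acads), -0.16 to -0.12 (Hadha minus Hadh), -0.27 to -0.21 (Hadhb minus Acaa2) and -0.43 to -0.33 (Cpt1a minus Cpt2), and by day from 0.10 to 0.13 (Acadvl minus Acads) and 0.22 to 0.27 (Hadhb minus Acaa2). Over all tests of genes and pairs, leaving aside the fits added after seeing the data, 1889 kept direction and side of the threshold, 54 lost and 20 gained a call, and 45 changed sign.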
